A study of Homo sapiens and Mus musculus with 25 samples.

Results

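Chromosome 9p carries a run of genes around the tumour suppressor CDKN2A whose promoters held no peak for methylated histone H3 lysine 4 (H3K4) in the human leukemia line K562. The 10 genes described here are CDKN2A, CDKN2B, MTAP, IFNB1, IFNA1, IFNA2, IFNE, DMRTA1, TUSC1 and LINGO2, out of 19962 protein-coding genes on chromosomes 1 to 22 and X. They were chosen for lying between 20 and 32 Mb of chromosome 9 (hg38) in a region short of peaks. They were thus selected on the absence of peaks, which is given as a description with no test. The surroundings were read from 18 to 34 Mb, which hold the canonical transcription start sites of 68 protein-coding genes. Along the chromosome the 10 starts are IFNB1 at 21077942, IFNA2 at 21385398, IFNA1 at 21440439, IFNE at 21482313, MTAP at 21802636, CDKN2A at 21974857, CDKN2B at 22009305, DMRTA1 at 22446824, TUSC1 at 25678444 and LINGO2 at 29213601.

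The H3K4 and H3K9me3 peaks come from internally calibrated ChIP-seq, in which barcoded nucleosome standards are added to the chromatin before immunoprecipitation. The title of the H3K27me3 library does not name this method. All libraries used here were made from K562 cells with no treatment named in the labels. Each is 1 antibody: the panel has 5 for H3K4me1, 4 for H3K4me2 and 8 for H3K4me3, plus 1 each for H3K9me3 (Koide Lab 309M3B) and H3K27me3 (Cell Signaling Technology 9733). The authors also deposited 3 lists, 1 per H3K4 mark, that they had corrected for antibody cross-reactivity. Per the note deposited with the series, these were computed from libraries of the same panel (Abcam ab8895, ab7766, ab12209 and ab8580). Lists of different antibodies are the replicates of a mark, so their spread is that between reagents used on 1 cell line.

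H3K4me3 marks active or poised promoters, H3K4me1 marks enhancers and the flanks of active promoters, and H3K4me2 is found at both. H3K9me3 and H3K27me3 are repressive marks, of heterochromatin and of Polycomb-silenced chromatin. CDKN2A encodes p16INK4a and ARF, brakes of the cell cycle of which the former acts through RB, and CDKN2B encodes the related p15INK4b. MTAP salvages methionine from methylthioadenosine, and IFNB1, IFNA1, IFNA2 and IFNE encode type I interferons, secreted antiviral proteins. DMRTA1 is a DM-domain transcription factor, TUSC1 a gene named as a tumour suppressor candidate, and LINGO2 a membrane protein with leucine-rich repeats. K562 is known as a line in which the CDKN2A region is deleted. DNA copy number was not measured in the lists used here, and its part in the values below was not tested.

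Promoter sequences are shown for the left border gene FOCAD and for 5 of the 10 genes, because FOCAD holds H3K4 peaks and the others do not. Each is the RefSeq window from 250 bases before to 50 bases after the start (GRCh38.p14), 5′ to 3′ on the gene's strand, with CG dinucleotides in capitals. FOCAD lies at chr9:20684009-20684308 (plus strand), IFNB1 at chr9:21077893-21078192 (minus strand), MTAP at chr9:21802386-21802685 (plus strand), CDKN2A at chr9:21974808-21975107 (minus strand), CDKN2B at chr9:22009256-22009555 (minus strand) and TUSC1 at chr9:25678395-25678694 (minus strand).
FOCAD: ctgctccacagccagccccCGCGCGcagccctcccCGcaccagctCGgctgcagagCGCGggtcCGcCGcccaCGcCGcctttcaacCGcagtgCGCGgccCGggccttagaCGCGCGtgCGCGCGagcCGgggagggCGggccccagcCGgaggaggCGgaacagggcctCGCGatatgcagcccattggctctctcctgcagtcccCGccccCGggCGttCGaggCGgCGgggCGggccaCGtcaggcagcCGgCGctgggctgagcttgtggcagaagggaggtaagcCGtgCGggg
IFNB1: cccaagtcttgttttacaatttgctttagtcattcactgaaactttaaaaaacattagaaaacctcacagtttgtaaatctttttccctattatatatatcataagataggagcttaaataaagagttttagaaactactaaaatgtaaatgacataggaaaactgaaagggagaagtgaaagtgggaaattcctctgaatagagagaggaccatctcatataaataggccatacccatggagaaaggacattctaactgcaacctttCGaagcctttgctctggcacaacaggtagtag
MTAP: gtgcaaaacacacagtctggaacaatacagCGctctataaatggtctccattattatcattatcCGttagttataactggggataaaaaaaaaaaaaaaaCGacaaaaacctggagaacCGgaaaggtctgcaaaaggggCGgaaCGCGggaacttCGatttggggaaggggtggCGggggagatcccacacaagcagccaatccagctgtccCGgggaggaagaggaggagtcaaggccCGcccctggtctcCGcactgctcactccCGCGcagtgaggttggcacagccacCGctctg
CDKN2A: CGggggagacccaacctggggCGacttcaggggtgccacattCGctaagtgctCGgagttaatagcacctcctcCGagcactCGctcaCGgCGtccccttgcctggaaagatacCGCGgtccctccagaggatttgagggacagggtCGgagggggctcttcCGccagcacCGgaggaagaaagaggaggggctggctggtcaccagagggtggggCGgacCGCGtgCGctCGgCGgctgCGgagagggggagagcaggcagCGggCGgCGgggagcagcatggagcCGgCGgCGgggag
CDKN2B: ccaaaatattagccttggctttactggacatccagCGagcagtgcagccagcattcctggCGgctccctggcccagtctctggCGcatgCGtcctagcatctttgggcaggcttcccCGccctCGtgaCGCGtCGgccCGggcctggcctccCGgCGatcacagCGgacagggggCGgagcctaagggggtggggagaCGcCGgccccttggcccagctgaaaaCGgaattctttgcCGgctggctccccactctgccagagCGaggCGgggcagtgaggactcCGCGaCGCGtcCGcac
TUSC1: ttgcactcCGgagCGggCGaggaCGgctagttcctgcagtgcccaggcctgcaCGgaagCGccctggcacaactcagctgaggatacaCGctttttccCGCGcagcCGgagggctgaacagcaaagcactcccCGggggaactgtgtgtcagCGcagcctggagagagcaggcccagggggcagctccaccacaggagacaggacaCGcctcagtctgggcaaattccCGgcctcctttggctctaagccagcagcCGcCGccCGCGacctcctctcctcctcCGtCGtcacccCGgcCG
The FOCAD window holds 39 CG dinucleotides, that of CDKN2A 26, that of CDKN2B 25, that of TUSC1 22, that of MTAP 15 and that of IFNB1 1. A window was called CpG-rich at an observed over expected CpG ratio of at least 0.6 and a GC content of at least 55%. By that rule CDKN2A (ratio 0.764, GC 69.0%), CDKN2B (0.736, 67.3%) and TUSC1 (0.659, 67%) were CpG-rich. MTAP missed the rule on GC content (0.715, 53%) and DMRTA1 on the ratio (0.549, 62.3%). The 4 interferon genes were CpG-poor, with ratios of 0.104 for IFNA2, 0.111 for IFNB1, 0.176 for IFNA1 and 0.312 for IFNE. The LINGO2 window was not used, since no RefSeq start lay within 1000 bases of its canonical start.

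No H3K4 peak touched the promoter of any of the 10 genes, taken as 1 kb either side of the canonical start. This held in each of the 17 H3K4 lists, so 0 of 170 pairs of gene and list had a peak. The 3 corrected lists had none there, but they derive from libraries among the 17 and are no separate evidence. Over all protein-coding genes 1540 of 19962 promoters, 7.71%, had a peak in none of the 17 lists. The genes were chosen for this, and nothing is read from the contrast. The count was also 0 when every annotated transcript start was used, which takes in the separate ARF start of CDKN2A.

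The gene bodies were as bare of H3K4 peaks as the starts. None of the 17 lists had a peak anywhere in the bodies of the 10 genes, from IFNB1 (0.839 kb) to LINGO2 (1276 kb). For CDKN2A the nearest H3K4 peak lay 1246 kb from the start in the closest list (EpiGentek A-4031-050), 1289 kb in the median list and 2736.4 kb in the farthest (Active Motif 39635). For IFNB1, the member closest to a border, the same distances were 349, 392 and 1839.5 kb. TUSC1 stood apart in its range, with 935 kb in EMD Millipore 05-1338, 4980.5 kb in the median list and 6440 kb in the farthest. For 9 of the 10 genes no list had a peak within 500 kb. Across the genome 39 genes, 0.195%, were that far from every H3K4 peak, and 17 of the 39 start between 18 and 34 Mb of chromosome 9.

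**Figure D1:**
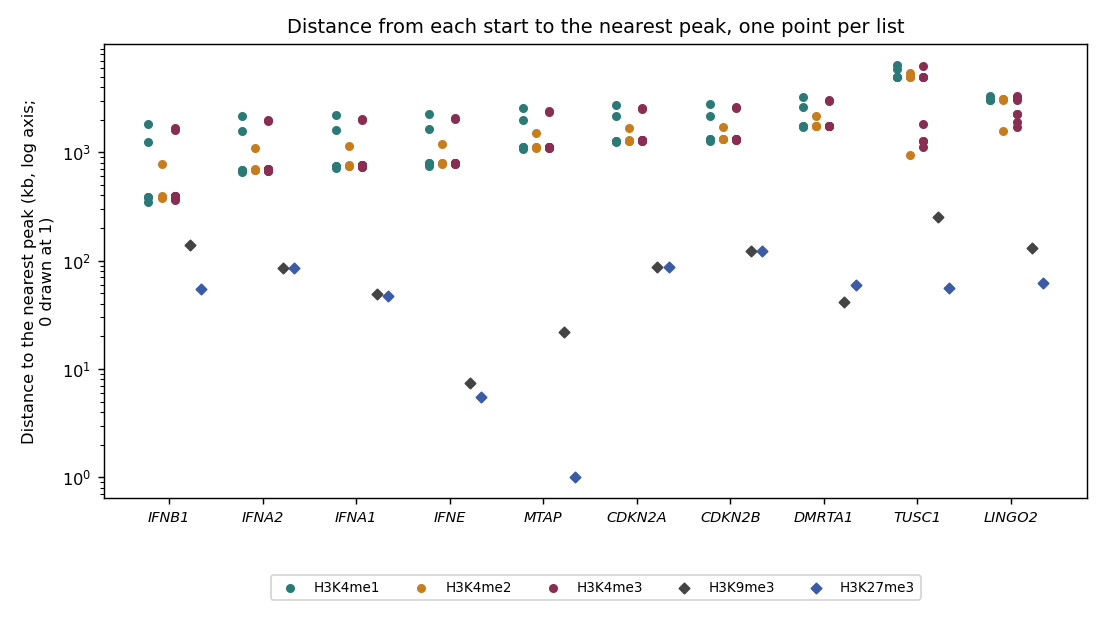
Distance in kb (log axis) from the canonical start of each of the 10 genes to the nearest peak, with 1 point per list, coloured by mark. Circles are the 17 H3K4 lists and diamonds the H3K9me3 and H3K27me3 lists; the MTAP start lies under an H3K27me3 peak and is drawn at 1 kb. H3K4 peaks lay at least 349 kb away, while the nearest H3K9me3 peak lay between 7.36 kb (IFNE) and 252 kb (TUSC1).

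Both repressive marks were also missing from most of these starts. H3K9me3 covered none of the 10 promoters, whereas 98.7% of all protein-coding promoters lay under a peak of that list, which spans 96.9% of the sequenced bases of chromosomes 1 to 22 and X. H3K27me3 covered the promoter of MTAP alone, against 73.9% of all promoters. The rule read these lists too, so both counts are descriptions. The H3K27me3 peak over MTAP ran from 21780596 to 21809484, a width of 28.9 kb, and began 1 base after an H3K9me3 peak ended at 21780595. A later patch shared by both lists, from 21841799 to 21887479 in H3K9me3 and to 21887477 in H3K27me3, lay inside the MTAP body. Together such patches put 33.8% of the 135 kb MTAP body under H3K9me3 and 40.1% under H3K27me3. The bodies of the other members except LINGO2 had 0% under either mark.

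LINGO2 was split by a border. The gene runs from 27937617 to 29213601 on the minus strand, so its start is the right-hand end. Near-continuous H3K9me3 coverage ended at 28555657 and that of H3K27me3 at 28554291, inside the gene. The 3′ part of 618 kb lay on the covered side. The 5′ part of 658 kb lay on the nearly bare side, with isolated H3K9me3 peaks of 1.41 and 0.967 kb. Over the whole body 48.1% was under H3K9me3 and 44.1% under H3K27me3.

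Borders were placed first from the H3K4 lists. A 100 kb bin was called peak-poor when at most 1 of the 17 lists had a base of a peak in it, and a stretch was 3 or more such bins in a row. Of 160 bins between 18 and 34 Mb, 112 were peak-poor and 106 had a peak in no list, against 7.86% peak-poor among 29169 bins of the genome. The bins formed 3 stretches. The first ran from 20800001 to 26900000 (6.10 Mb) and holds the starts of 9 of the 10 genes, the second from 27000001 to 27300000 (0.30 Mb) and the third from 27600001 to 32200000 (4.60 Mb), with LINGO2. All 30 protein-coding starts in these stretches had a promoter peak in 0 of 17 lists, which largely follows from how the stretches were called and is no separate result. Between 18 and 34 Mb, 31 of the 38 starts outside the stretches had a promoter peak in at least 1 list. Over all protein-coding genes 18422 of 19962 had one, a higher share.

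**Figure D2:**
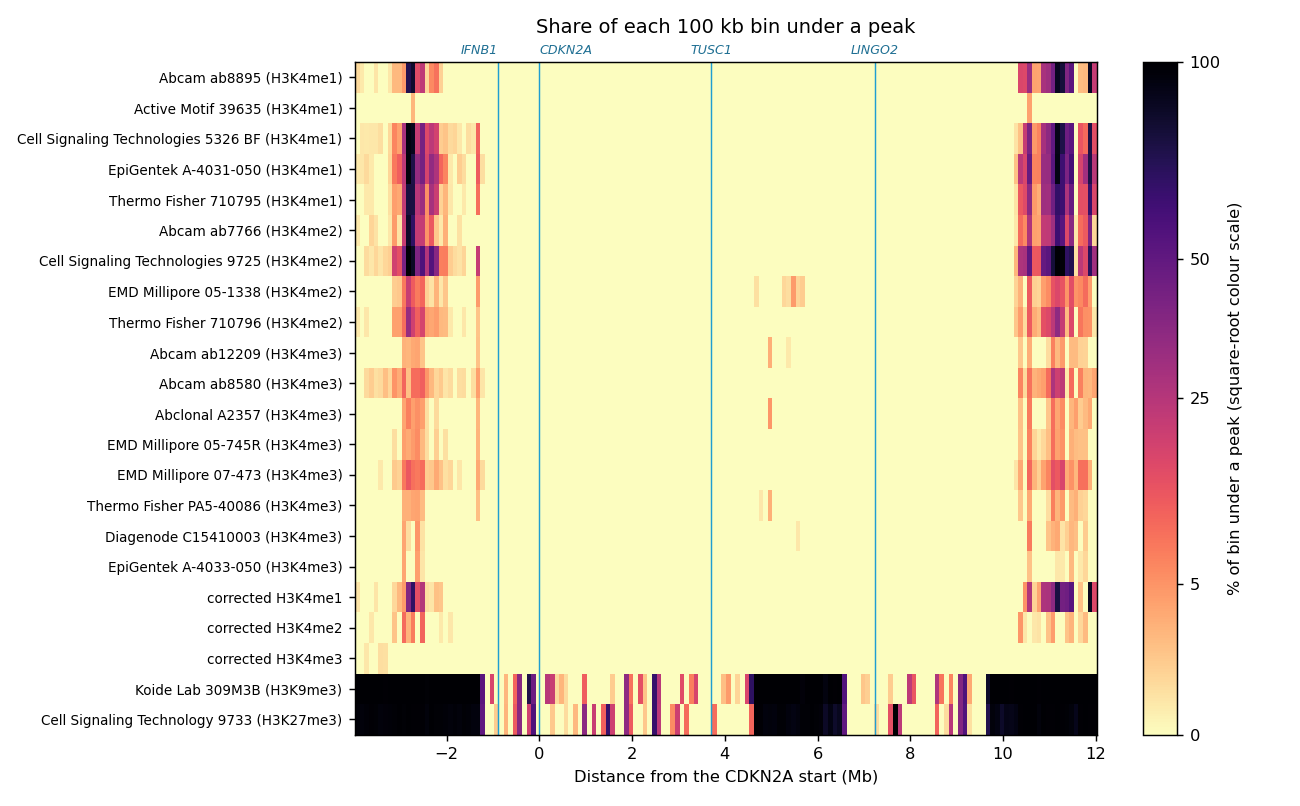
Share of each 100 kb bin under a peak, for the 17 H3K4 lists, the 3 corrected lists and the 2 repressive lists (rows), by distance from the CDKN2A start in Mb. Darker bins are more covered on a square-root scale, and lines mark the starts of 4 genes. H3K4 rows are empty across the middle except for scattered bins near 5 Mb, where both repressive rows are nearly full again.

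In 12 of the 17 lists the stretches were 1 unbroken gap of 11.5 to 13.3 Mb (median 11.6 Mb). These were all 5 H3K4me1 lists, 3 of the 4 H3K4me2 lists and 4 of the 8 H3K4me3 lists. The other 5 lists had 15 peaks between 26613606 and 27655441, 8 of them from EMD Millipore 05-1338 (H3K4me2) and 4 of them within 5 kb of the start of PLAA, a regulator of ubiquitin-dependent turnover. PLAA had a promoter peak in 3 of 17 lists, all for H3K4me3: Abcam ab12209 (2530 bases wide), Abclonal A2357 (4912 bases) and Thermo Fisher PA5-40086 (2729 bases). These are the 3 H3K4me3 libraries made with 12 amplification cycles. All 4 of the 12-cycle libraries had a peak between the gaps, against 1 of 13 libraries of 8 cycles, and the part of the cycle number in these peaks was not tested. The remaining peaks were short, apart from 1 of 4362 bases in EMD Millipore 05-1338 inside MOB3B.

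The repressive lists drew sharper borders, and drew them alike at the joining distance used here. Joining peaks less than 10 kb apart and keeping domains of at least 500 kb, H3K9me3 left a first gap of 5.84 Mb. Its last domain base on the left was 20752211 and the next was 26589557, with isolated peaks between. H3K27me3 left a gap of 5.84 Mb from 20751323 to 26589604. The left edges differed by 888 bases and the right edges by 47 bases. Other joining distances gave less alike first gaps, of 5.84 Mb in H3K9me3 and 5.93 Mb in H3K27me3 over 1 kb. Over 50 kb they were 5.69 and 5.79 Mb. A second gap ran from 28555657 to 31614996 in H3K9me3 (3.06 Mb) and from 28554291 to 31621593 in H3K27me3 (3.07 Mb), with edges 1366 and 6597 bases apart. The 3 H3K4 stretches were called without these lists, but the rule for the region read them too, so the likeness of borders is a description. The 2 gaps also do not match the 3 stretches. The second stretch lay between the gaps, 100% under H3K9me3 and 97.1% under H3K27me3.

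Between the gaps lay 1.97 Mb in which H3K9me3 covered 99.5% and H3K27me3 95.0% of the length. Over chromosomes 1 to 22 and X the 2 lists covered 96.9% and 69.7% of sequenced bases. All 9 protein-coding starts of the interval, CAAP1, PLAA, IFT74, LRRC19, TEK, EQTN, IFNK, MOB3B and C9orf72, were under peaks of both repressive lists. Only PLAA had an H3K4 peak at its promoter. Of all protein-coding promoters 98.7% were under H3K9me3 and 73.9% under H3K27me3. Lying under either mark is thus common, also for the border genes below. Within the gaps H3K9me3 covered 8.98% of the first and 5.88% of the second, and H3K27me3 8.08% and 8.81%. None of the 26 protein-coding starts in the gaps was under H3K9me3, and 1, MTAP, was under H3K27me3. In the 17 H3K4 lists together the gaps held 0 peaks and the interval between them 15.

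The first border falls inside FOCAD, a gene for a focal adhesion protein. FOCAD starts at 20684259 and runs to 20995955. Its promoter had a peak in 12 of 17 H3K4 lists (3 of 5 for H3K4me1, 3 of 4 for H3K4me2 and 6 of 8 for H3K4me3) and lay under both repressive marks. The authors' highest value there, on a scale the lists do not name, was 23.9 to 26.3 in 3 H3K4me1 lists, 22.9 to 56.2 in 3 H3K4me2 lists and 23.5 to 41.2 in 5 H3K4me3 lists. In the H3K4me3 lists Abcam ab12209 (23.5) and Thermo Fisher PA5-40086 (26.5) it lay below the list's median (25.8 and 27.3). In the other lists with a value it lay above. The last H3K4 base of any list was 20728888. The H3K9me3 domain ended 68 kb from the FOCAD start, leaving 244 kb of the gene's 3′ end in the gap. Isolated H3K9me3 peaks lay in that part, the widest of 17.4 kb. HACD4, a very-long-chain acyl-CoA dehydratase and the next start to the right at 21031640, had a peak in 0 of 17 lists and lay under neither repressive mark, although its promoter is CpG-rich (ratio 0.828). On the other side of FOCAD, the CpG-rich promoter of MLLT3, a transcription elongation factor gene that starts at 20622499, also had a peak in 0 of 17 lists while lying under both repressive marks.

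At the far border the H3K4 and repressive lists parted. The H3K9me3 domains resumed at 31614996, but the first H3K4 base of any list was 32253261, in EMD Millipore 07-473. No protein-coding gene starts in the 0.638 Mb between. The next promoter, of the iron regulator ACO1 at 32384643, had a peak in 13 of 17 lists and lay under both repressive marks. The authors' values there ranged from 15.8 to 22.4 in 3 H3K4me1 lists and from 28.5 to 51.9 in 5 H3K4me3 lists.

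**Figure D3:**
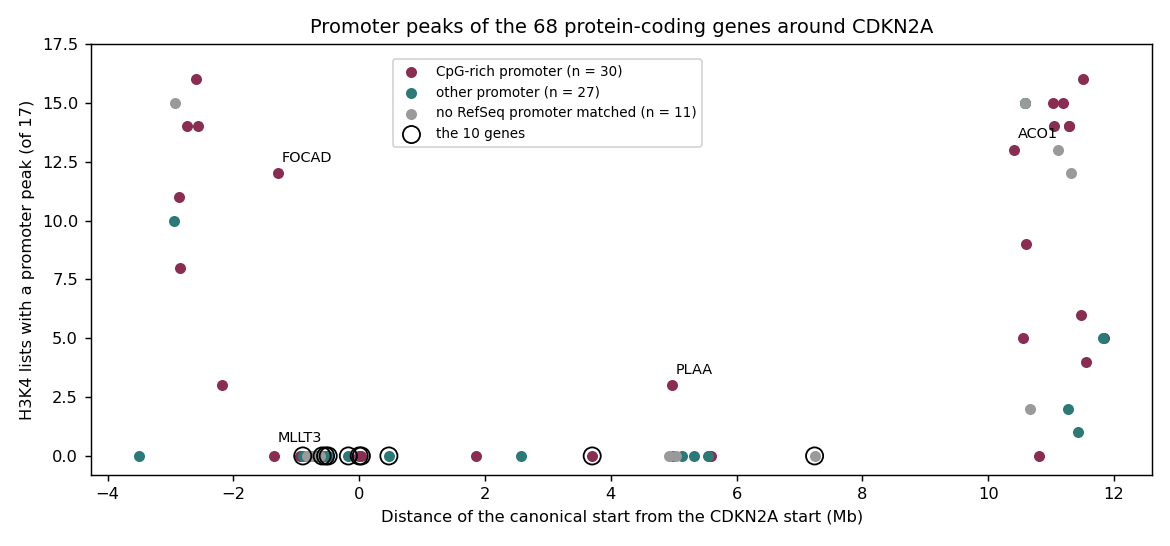
Number of the 17 H3K4 lists with a promoter peak for each of the 68 protein-coding genes, by distance of its start from the CDKN2A start in Mb, coloured by CpG class. Circles mark the 10 genes, all at 0; FOCAD stands at 12, PLAA at 3 and ACO1 at 13.

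The stretches hold 6 CpG-rich promoters, those of CDKN2A, CDKN2B, ELAVL2, HACD4, KLHL9 and TUSC1, and none had an H3K4 peak. The stretches were called on the absence of H3K4 peaks, so nothing is read from that count. As background, of 9633 CpG-rich promoters in the genome, 4.19% had none, and on chromosome 9 outside 18 to 34 Mb 23 of 419 had none (5.49%). Between 18 and 34 Mb outside the stretches 4 of 24 CpG-rich promoters had none, MLLT3 among them. Promoters that were not CpG-rich lacked a peak in 12.9% of cases genome-wide. The TATA motif TATAAA, read on either strand, was present in the windows of IFNB1, IFNE and MTAP, and in 9.38% of 14912 promoters. A match is a run of letters and was not tied to any binding.

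The gaps are fully sequenced in the reference (100% of their bases). GC content was 36.7% in the first gap, 35.1% in the second and 38.4% in the interval between them, against 40.9% over the genome. The first gap had 4.28 protein-coding starts per Mb, the interval 4.58 and the left flank 4.00, while the second gap had 0.327. The right flank had 12.6, and the genome 6.86.

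Few stretches elsewhere were as long. The genome held 232 stretches with a median of 0.50 Mb, and the first and the third stretches here ranked 2 and 3 by length, after 1 of 8.20 Mb on chromosome X. That X stretch holds 7 protein-coding starts and was 98.2% under H3K9me3, whereas the first stretch here holds 26 starts and was 13.7% under H3K9me3, and the third was 37.2%. Of 23 other stretches of at least 1 Mb with a protein-coding start, 4 were less than 50% covered by H3K9me3, and the median was 99.5%. Of 24 with no such start, 16 were less than 50% covered by H3K9me3. By H3K27me3, 14 of the 23 with a start were less than 50% covered, as were the first (12.7%) and the third (36.9%) stretches here. Bins with no H3K4 peak and less than 50% under each repressive list made up 2.33% of the genome's bins and 81 of the 160 bins here (50.6%), which is 11.9% of all 679 such bins.

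**Figure D4:**
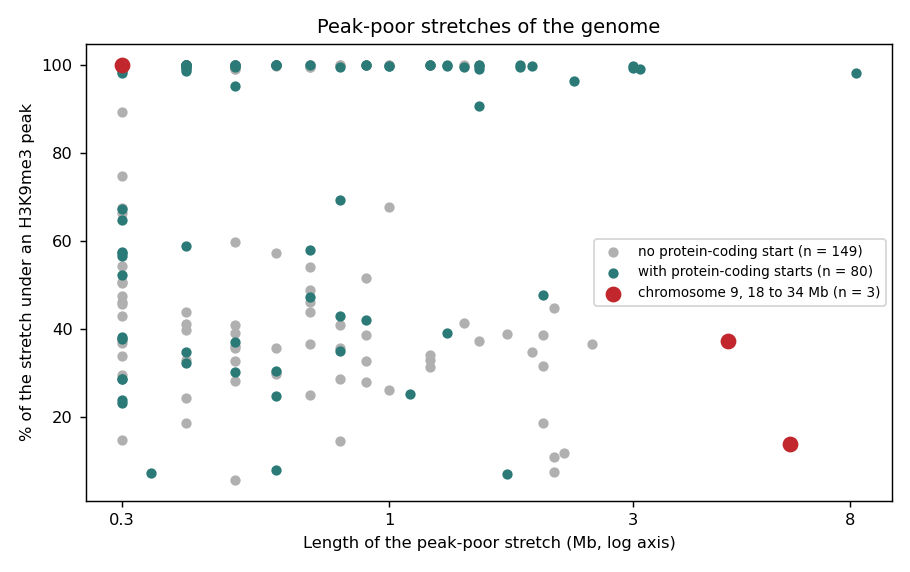
Length in Mb (log axis) of the 232 peak-poor stretches against the share of each under an H3K9me3 peak in percent, with stretches holding no protein-coding start in grey. The first and the third stretches of chromosome 9 (red) are long and lie at 13.7% and 37.2%, and the second, of 0.30 Mb, lies at 100%.

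Lists of genes related to the 10 by pathway or family were read beside all promoters, of which 52.9% had a peak in at least 5 of the 8 H3K4me3 lists. The 17 type I interferon genes of 9p had a peak in 0 of 17 lists each, IFNK between the gaps included. The interferon alpha genes are near-identical copies, so reads from them may not map uniquely, and the part of this in their empty promoters was not tested. Of interferon genes elsewhere, IFNL1 had a peak in 12 lists and IFNG in 8, IFNL2 in 3 and IFNL3 in 0, and none of the 4 reached 5 H3K4me3 lists. Genes of interferon induction and signalling reached it in 15 of 17 cases. The receptor genes IFNAR1 and IFNAR2 had peaks in all 17 lists, the DNA sensor CGAS in 10 and the RNA sensor RIGI, which starts at 32526196 beyond the far border, in 5.

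Genes of the RB axis reached 5 H3K4me3 lists in 10 of 11 cases, with CCND3, a D-type cyclin, and CDKN2C, a paralog of CDKN2A, in 17 of 17 lists, RB1 in 13 and CCND2 in 5. Of 10 genes of methionine salvage, polyamine synthesis and PRMT5, 8 reached it, with AMD1 and APIP in 17 lists, MRI1 in 11 and SMS in 8. Of the families of DMRTA1 and LINGO2, 0 of 6 DMRT genes and 1 of 3 LINGO genes reached it. DMRTA2 and DMRTB1 had peaks in 11 lists, DMRT1 and DMRT3, which also lie on 9p, in 0, LINGO1 in 17, LINGO3 in 10 and LINGO4 in 7. The cell line's label was read from markers, with 7 of 8 erythroid and K562 genes reaching it, 0 of 6 lymphocyte genes and 0 of 3 hepatocyte genes.

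Coverage of the flanks was the only value compared between marks. In the 50 bins between 18 and 34 Mb that lie outside the stretches, the share of bases under a peak was divided by the same list's share of the genome. These are 28 bins left of the first stretch, 18 right of the third and 4 between stretches. The ratio was 0.434 ± 0.259 (SD, n = 5) for H3K4me1, 0.551 ± 0.319 (SD, n = 4) for H3K4me2 and 0.767 ± 0.366 (SD, n = 8) for H3K4me3. Over the 50 bins together the ratio was below 1 in all 5 H3K4me1 lists (0.00228 to 0.649), in 3 of 4 H3K4me2 lists (0.326 to 1.01) and in 5 of 8 H3K4me3 lists (0.158 to 1.16). Chromosome 9 as a whole, with this region included, was also covered less than the genome. Its mean share was 27.6% against 37.8% for H3K4me1, 19.4% against 26.9% for H3K4me2 and 3.39% against 4.63% for H3K4me3. Being covered less than the genome is thus not particular to the flanks. The left flank (18000001 to 20752211) was covered less than chromosome 9 as well, with means of 9.44%, 8.65% and 1.06% for the 3 marks. In the right flank (32253261 to 34000000) the means were 25.8%, 20.7% and 2.79%. The sides differed. On the left the ratio lay below 1 in each of the 17 lists, with means of 0.285 ± 0.183 (SD, n = 5) for H3K4me1, 0.379 ± 0.198 (SD, n = 4) for H3K4me2 and 0.517 ± 0.228 (SD, n = 8) for H3K4me3. On the right the means were 0.761 ± 0.443 (SD, n = 5), 0.920 ± 0.541 (SD, n = 4) and 1.25 ± 0.605 (SD, n = 8). There 2 of 5 H3K4me1 lists lay above 1 (EpiGentek A-4031-050 at 1.04 and Thermo Fisher 710795 at 1.11), as did 1 of 4 H3K4me2 lists and 6 of 8 H3K4me3 lists. The difference between sides was not tested. The right flank also held more protein-coding starts per Mb than the left (12.6 against 4.00), and the part of this was not tested.

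Over the 50 bins the ranges of the marks overlap. The differences were -0.333 between H3K4me1 and H3K4me3 (exact two-sided permutation p = 0.109, adjusted 0.326 over 3 pairs), -0.216 between H3K4me2 and H3K4me3 (p = 0.339, adjusted 0.509) and -0.117 between H3K4me1 and H3K4me2 (p = 0.556, adjusted 0.556). None passed 0.05, where the smallest p these designs allow is 0.000777, 0.00202 and 0.00794.

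One list stood apart in the flanks. Active Motif 39635 (H3K4me1) covers 54.7% of the genome, the most of the 17 lists, but had 1 peak in each flank and a ratio of 0.00228. The list is uneven between chromosomes, covering 83.3% of chromosome 1 but 3.79% of chromosome 13, 3.07% of chromosome 14 and 0.685% of chromosome X. Of chromosome 9 as a whole it covers 34.3%, against 0.0854% of the left flank and 0.222% of the right. Within its own chromosome the list was thus low in the flanks. Without this list the difference between H3K4me1 and H3K4me3 was -0.226 (exact permutation p adjusted 0.509) and that between H3K4me1 and H3K4me2 was -0.00926 (adjusted 0.971). Without EMD Millipore 05-1338, the H3K4me2 list at 1.01, the latter difference changed sign to 0.0374 (adjusted 0.821), the same value as among libraries of 8 amplification cycles. Among those 8-cycle libraries the difference between H3K4me1 and H3K4me3 was -0.114 (exact permutation p adjusted 0.798). Among the lists of the first library set (AR16) alone it was -0.397 (adjusted 0.260), and the second set holds only 2 H3K4me3 lists, so it gives no comparison.

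**Figure D5:**
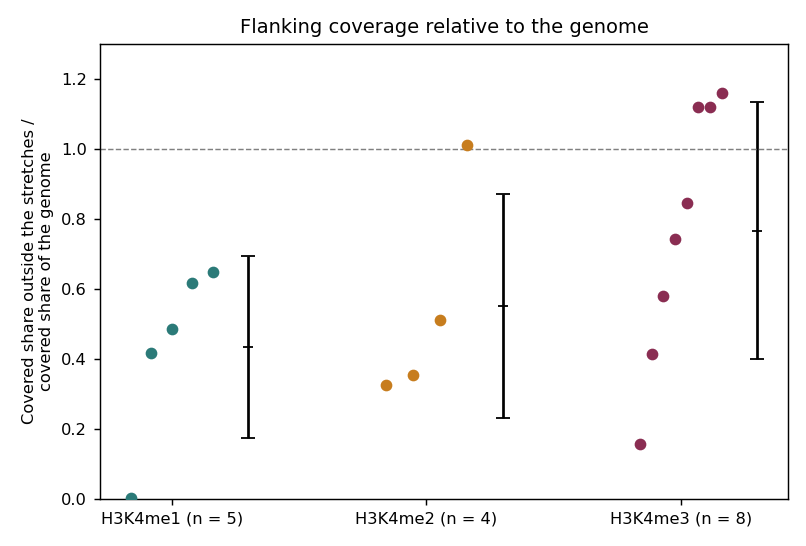
Covered share of the flanking bins divided by the covered share of the genome, 1 point per antibody, with the mean and SD of each mark beside the points and a dashed line at 1. H3K4me1 points lie between 0.00228 and 0.649 and H3K4me3 points between 0.158 and 1.16.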

How the data were processed

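The deposited peak lists of 19 K562 libraries and 3 corrected lists were used, on GRCh38 (hg38). Per the submitters' processing notes, Bowtie2, SAMtools, bedtools and MACS2 were used; no version, peak setting or definition of high confidence was found in the labels or lists. Each row holds a position deposited by the authors, and in 17 of 22 lists a score per peak that the authors deposited without naming its scale. The lists carry no read counts, so the depth is unknown. Input and mouse libraries were not analysed here.

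Overlaps were computed with Python 3, NumPy and pandas, with GENCODE 44 protein-coding starts, promoters of 1 kb either side, bins of 100 kb (bins over 50% unsequenced left out) and a minimum overlap of 1 base. Shares of a chromosome or the genome count sequenced bases only. Named genes are the 10 members, the genes on both sides of each border, and of each related list the 2 with the most and the 2 with the fewest lists; others were chosen after their values were seen. Antibodies were grouped by target, and the 3 targets compared by exact permutation with Benjamini-Hochberg adjustment. Peak calling decides what counts as absent: a region below the threshold and a region without reads look the same in a list. Functions were tested on simulated lists. The members and lists were chosen with earlier results of these data known. Alternatives concerned windows, bins, thresholds and left-out antibodies; domain, CpG and single-flank settings were chosen after seeing the data. Related-gene lists were type I interferon genes of 9p, interferon genes elsewhere, interferon signalling, RB axis, methionine salvage, DMRT and LINGO families. One further list is not reported here.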

Additional observations from a re-analysis of the deposited data

Results flagged for a closer look

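EMD Millipore 05-1338 (H3K4me2) stood apart from the other 3 H3K4me2 lists in the length of its peak-free gap. Its gap was 5.92 Mb at the midpoint of the first stretch, 0.598 Mb at that of the second and 4.60 Mb at that of the third, where the nearest of the other 3 lists had 11.6 Mb. The 3 values come from the same 8 peaks between the gaps, 7 of them under 800 bases wide. It is the H3K4me2 library made with 12 amplification cycles, while the other 3 had 8, and the part of this in the values was not tested. Of 12 groups of antibodies examined, chance would nominally set apart about 1 in 20. The groups are not independent, since 12 of the 17 lists have the same gap at all 3 stretches.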

How the results depend on the processing

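The promoter count of the 10 genes stayed at 0 under all 6 alternatives. The summed length of the stretches was 11.0 Mb and fell to 5.50 Mb when a bin could hold a peak in at most 1 of all 22 lists; under the others it lay within 1.5 times, and leaving out each antibody gave 11.0 to 11.3 Mb. The median gap of the 17 lists was 11.6 to 11.7 Mb under both alternatives at each stretch. Of the differences in flank coverage none passed 0.05 under any alternative. That between H3K4me1 and H3K4me2 turned to 0.0374 without EMD Millipore 05-1338 and among 8-cycle libraries; the cause was not tested. With the bins of 1 side alone, an alternative chosen after seeing the data, the 3 differences kept their direction. With antibodies left out in turn it ranged from -0.192 to 0.0374, that of H3K4me1 and H3K4me3 from -0.420 to -0.226, and that of H3K4me2 and H3K4me3 from -0.371 to -0.141. Joining repressive peaks over 1 kb lengthened the second gap to 3.92 Mb in H3K9me3 and 4.53 Mb in H3K27me3, so the 2 lists were less alike there. Over 50 kb the second gap stayed at 3.06 and 3.07 Mb. With other CpG thresholds 2 to 4 of the 10 genes were CpG-rich, all without a peak. No paired analysis was possible because replicate numbers only name antibodies in accession order. A list cannot show signal below its threshold, and its depth is unknown.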

Other observations

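Inside both gaps the H3K9me3 list had 40 isolated peaks and the H3K27me3 list 31. In the first gap the H3K9me3 peaks were 0.228 to 89.8 kb wide and the H3K27me3 peaks 0.236 to 89.8 kb. Several had the same edges in both lists: within 100 bases, 11 left or right edges coincided, which is 13.8% of the H3K9me3 edges and 17.7% of the H3K27me3 edges in the gaps, against 13.0% and 4.88% over chromosomes 1 to 22 and X. At 6 edges a peak of 1 list ended within 100 bases of the start of a peak of the other, 7.50% of the H3K9me3 edges and 9.68% of the H3K27me3 edges, against 1.28% and 0.480% over those chromosomes. These edges were read after the peaks of the gaps had been seen. The left edge of the H3K27me3 peak over the MTAP promoter is 1 of the 6.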
